A study of Mus musculus with 4 samples.

Results

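The genes described here are 33 antiviral genes that type I interferon induces in most cells. They were chosen by name, with earlier results of these data known. Each was found once among the 28545 genes of every library, so 33 of 28545 genes are described. The data are RNA-seq of polyadenylated RNA from mouse endometrium, the lining of the uterus, in 4 libraries with 2 in each group. The first group is labelled SMAD7fl/fl, with the treatment given as blank, and is called floxed here. The second is labelled SMAD7 Cre+/-, with the treatment given as CKO, and is called Cre here. Per the labels' protocols, loxP sites were placed in Smad7 by injecting fertilized eggs with Cas9 mRNA, a guide RNA and a donor vector; this is given for all 4 libraries, so it covers both groups, while the series' design text speaks of wild-type mice beside knockout mice. All mice were in proestrus, the phase of the cycle before ovulation. The sources used here do not give the Cre line and the cells in which it acts, the deleted exons, the ages, the strain or any pooling of animals. Nothing in the labels ties each library to an animal of its own, and a p-value here measures only the spread between libraries, which may be technical.

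Total counts ran from 17444368 to 22950532 per library. Smad7, the targeted gene, goes against the labels: it stood at 34.3 and 36.8 CPM (the count scaled to library size, with TMM factors) in the floxed-labelled libraries and at 228 and 154 CPM in those labelled Cre. Every direction below is therefore the one in Cre-labelled against floxed-labelled libraries, and a loss of Smad7 was not seen in the libraries labelled Cre. Pairs of values are given as replicate 1 and replicate 2, floxed before Cre. The biological coefficient of variation was 0.403 for the floxed pair and 0.163 for the Cre pair, so the floxed pair carried most of the spread. Markers of endometrial epithelium and stroma were present in all 4 libraries, with summed levels of 1593 to 2432 and 3019.7 to 5028 CPM. Markers of smooth muscle, which the endometrium itself lacks outside vessels, summed to 3256 and 2453.5 CPM in the floxed-labelled libraries and to 6275 and 5095 CPM in those labelled Cre.

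Type I interferons are secreted proteins that bind the receptor IFNAR1 and IFNAR2. The kinases JAK1 and TYK2 then phosphorylate STAT proteins, and the complex ISGF3 forms, which holds STAT2 and IRF9. ISGF3 binds a DNA element in the promoters of target genes, the interferon-stimulated response element, and raises their transcription. The products sense viral nucleic acid, block translation and copying of viral RNA, hold virus particles at the cell surface, or feed back on the pathway itself. Interferon gamma acts through another receptor and another DNA element, the gamma-activated sequence, and its targets overlap with those of type I interferon. In the uterus such genes are known for their response to infection and, in many mammals, to pregnancy, and the epithelium makes its own type I interferon, interferon epsilon.

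The promoters of 7 of the genes are shown because each holds, in letters, an element through which interferons are known to act. Each is the 190 bases before the transcription start, from RefSeq on GRCm38.p6, read 5′ to 3′ along the gene. Capitals mark the core of the interferon-stimulated response element, GAAA, any 2 bases, GAAA, on either strand (TTTC, any 2 bases, TTTC when it lies on the other strand), and in Irf1 the core of the gamma-activated sequence, TTCNNNGAA. The windows lie at chr4:156200819-156201008 (minus strand, Isg15), chr19:34640699-34640888 (plus strand, Ifit1), chr19:34583339-34583528 (plus strand, Ifit3), chr19:34607767-34607956 (plus strand, Ifit3b), chr12:26456453-26456642 (minus strand, Rsad2), chr8:71537473-71537662 (minus strand, Bst2) and chr11:53769824-53770013 (plus strand, Irf1).
Isg15: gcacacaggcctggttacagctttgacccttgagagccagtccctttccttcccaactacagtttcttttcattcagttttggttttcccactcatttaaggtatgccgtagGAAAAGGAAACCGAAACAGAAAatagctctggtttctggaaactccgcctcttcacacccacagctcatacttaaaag
Ifit1: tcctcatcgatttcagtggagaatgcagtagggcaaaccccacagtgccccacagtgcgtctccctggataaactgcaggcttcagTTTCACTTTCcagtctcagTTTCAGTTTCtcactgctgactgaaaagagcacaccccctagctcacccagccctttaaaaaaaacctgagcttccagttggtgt
Ifit3: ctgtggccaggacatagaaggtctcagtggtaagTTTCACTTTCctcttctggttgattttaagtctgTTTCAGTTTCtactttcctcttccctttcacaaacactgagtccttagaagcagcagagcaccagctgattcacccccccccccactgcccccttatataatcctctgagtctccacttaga
Ifit3b: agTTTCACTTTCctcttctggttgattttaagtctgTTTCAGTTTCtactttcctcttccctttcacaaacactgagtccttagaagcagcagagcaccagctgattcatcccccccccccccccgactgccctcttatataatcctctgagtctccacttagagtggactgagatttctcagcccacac
Rsad2: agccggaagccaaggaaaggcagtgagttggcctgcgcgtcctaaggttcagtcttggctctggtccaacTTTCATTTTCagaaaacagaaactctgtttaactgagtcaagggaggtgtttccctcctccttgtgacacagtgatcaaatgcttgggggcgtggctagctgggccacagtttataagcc
Bst2: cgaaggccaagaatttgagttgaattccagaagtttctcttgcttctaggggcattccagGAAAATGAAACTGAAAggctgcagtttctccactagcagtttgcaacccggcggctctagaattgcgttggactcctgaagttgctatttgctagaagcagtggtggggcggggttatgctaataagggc
Irf1: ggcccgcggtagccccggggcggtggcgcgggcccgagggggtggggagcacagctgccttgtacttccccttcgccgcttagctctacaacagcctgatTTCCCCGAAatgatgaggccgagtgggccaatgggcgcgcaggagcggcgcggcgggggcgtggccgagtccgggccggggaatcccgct
The 2 element cores in Ifit1 begin 104 and 85 bases before the start. Both cores of Ifit3, at 156 and 122 bases, recur with the same letters and spacing in Ifit3b, at 188 and 154 bases. In Isg15 the 3 matches overlap each other, as do the 2 in Bst2. Of the 33 genes, 24 had a promoter window of 300 bases (250 before to 50 after the start) in the RefSeq table, and 9 did not. The response element core was found in 13 of the 24 (54.2%), against 1079 of all 27025 genes in the table (3.99%). By window it was in 3.44% of all 32851 promoters. The gamma-activated core was found in 6 of the 24 (25.0%), against 9.55% of all genes, and 3 genes (Oas1a, Bst2 and Eif2ak2) had both cores. The 11 genes with no response element core in their windows were Ifit2, Oasl1, Oasl2, Irf1, Irf7, Irf9, Ifi44, Xaf1, Cmpk2, Ifi35 and Herc6; this says only that these letters were not in that stretch. A match is a description of the sequence and not a measured binding site.

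The comparison asks how these genes differ between endometrium labelled Cre and endometrium labelled floxed. In 32 of the 33 genes both libraries labelled Cre lay below both libraries labelled floxed. The exception was Oas2, where both lay above. Over all 13513 genes tested, 23.6% had both libraries labelled Cre below both labelled floxed and 24.7% had them above. The median log2 fold change of the 33 genes was -1.43, against -0.033 over all genes tested, and it ran from -2.75 for Ifit3 to 0.28 for Oas2. Ifit3, Rsad2, Isg15, Ifit2 and Ifit3b had the largest differences, from 5.46-fold to 6.71-fold lower in the libraries labelled Cre. All 33 passed the filter of a mean FPKM of 1, among them Herc6, whose mean in the libraries labelled Cre alone was 0.945 FPKM and which passed through the floxed-labelled libraries.

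With edgeR's quasi-likelihood test and Benjamini-Hochberg adjustment, 0 of the 33 genes and 0 of all 13513 genes (0.0%) were called at an adjusted p under 0.05, in either direction. At the unadjusted threshold of 0.05, 29 of the 33 were lower in the libraries labelled Cre and 0 were higher, where 6.58% of all genes were lower and 7.3% higher. The 4 others were Oas2, Mx1, Eif2ak2 and Parp14. Adjusted p-values ran from 0.0919 (Ifit1, Ifit3, Ifit3b and Rsad2) to 0.57 (Oas2), and 5 members were under 0.1, the fifth being Rtp4 (0.0982), against 0.296% of all genes. DESeq2 on the same counts called 20 of the 33 lower at an adjusted p under 0.05, against 3.0% of all genes. Without floxed replicate 1, edgeR called 25 of the 33 lower at an adjusted p under 0.05, against 13.9% of all genes, and without floxed replicate 2 it called 31, against 11.4%. With either library labelled Cre left out it called 0, and the members lower numbered 18 without replicate 1 and 16 without replicate 2 at an unadjusted p under 0.05, against 2.17% and 2.0% of all genes. An exact two-sided permutation test of 2 against 2 libraries cannot give a p below 0.333.

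**Figure D1:**
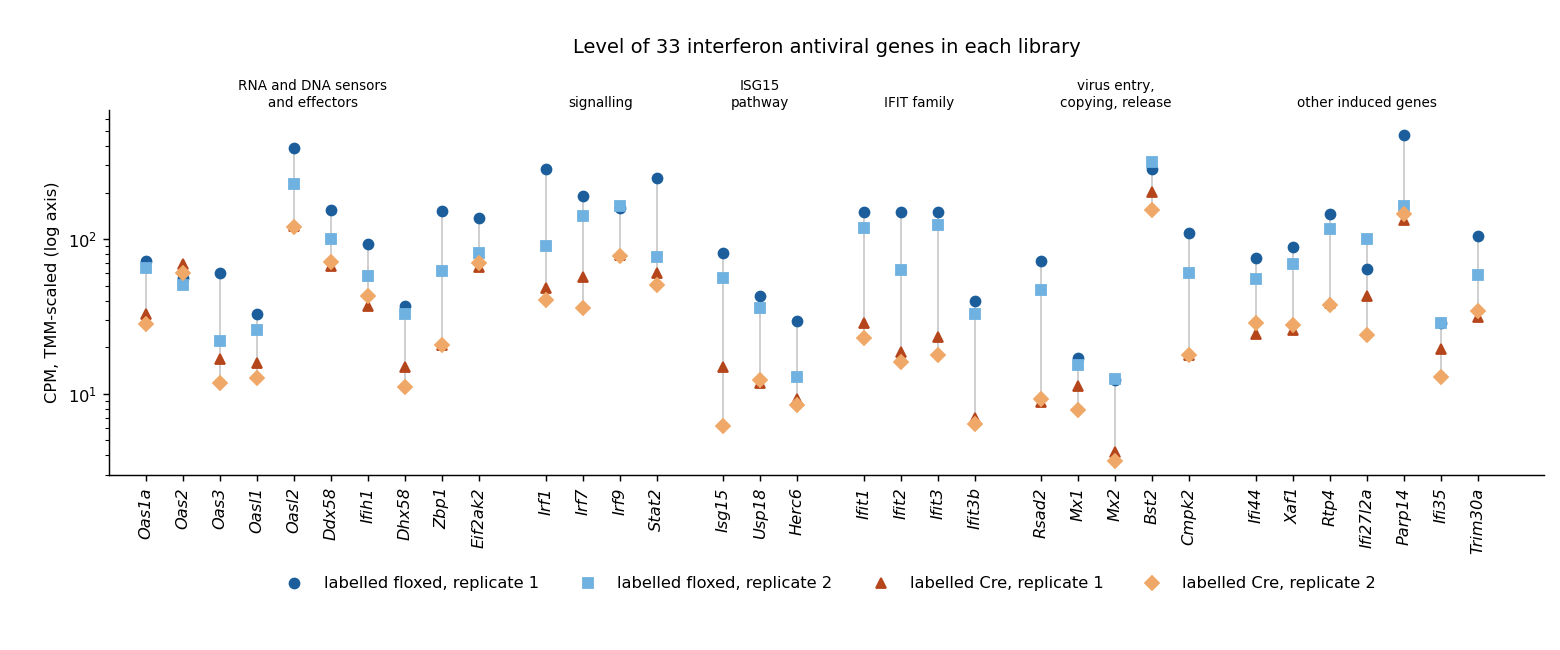
Level of each of the 33 genes in each library, in TMM-scaled CPM on a log axis, grouped by role; circles and squares are the floxed-labelled libraries, triangles and diamonds those labelled Cre. In 32 genes both Cre symbols lie below both floxed symbols, and in Oas2 they lie above.

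The IFIT proteins bind viral RNA that lacks the host's cap marks and keep it from being translated. Their genes were the most different of the role groups, with a median log2 fold change of -2.53 and a range from -2.75 to -2.38. Ifit1, whose product recognizes the RNA end, stood at 150.3 and 119 CPM in the floxed-labelled libraries and at 28.7 and 22.9 CPM in those labelled Cre (log2 fold change -2.38 ± 0.25, SE). Ifit3 stood at 149.9 and 124 against 23.1 and 17.7 CPM (-2.75 ± 0.26). Both floxed libraries were high and both Cre libraries low in these genes, and the lower floxed library was still 4.14 times the higher Cre library for Ifit1 and 5.36 times for Ifit3. Ifit3b, a near copy of Ifit3, stood at 39.8 and 32.9 against 6.92 and 6.39 CPM (-2.45 ± 0.26). Ifit2 stood at 149 and 63.2 against 18.5 and 16.1 CPM (-2.61 ± 0.45). Unlike the other three, its floxed libraries differed by a ratio of 2.35, and its log2 fold change was -1.87 without floxed replicate 1.

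ISG15 is a ubiquitin-like protein that is joined to other proteins during the interferon response. Isg15 stood at 81.3 and 55.7 CPM in the floxed-labelled libraries and at 15.0 and 6.16 CPM in those labelled Cre (-2.69 ± 0.49). Its Cre libraries differed by a ratio of 2.43, the widest gap between that pair among the 33 genes, and the log2 fold change was -3.48 without Cre replicate 1. By FPKM, which allows for gene length, Isg15 averaged 97.3 ± 30.2 in the floxed-labelled libraries and 14.9 ± 8.74 in those labelled Cre (SD, n = 2 each). Usp18, the protease that removes ISG15 and dampens the receptor, stood at 42.9 and 35.7 against 11.7 and 12.3 CPM (-1.71 ± 0.24). Herc6, the ligase that attaches ISG15 in mice, was low throughout, at 29.4 and 12.8 against 9.21 and 8.47 CPM (-1.26 ± 0.46), and most of its difference came from floxed replicate 1: its log2 fold change was -0.54 without that library. The activating enzyme Uba7 and the conjugating enzyme Ube2l6, which carry ISG15 to its targets, are no members and were picked after their values were seen. Uba7 stood at 72.3 and 53.4 against 38.4 and 32.5 CPM (-0.83 ± 0.24). Ube2l6 stood at 123 and 51.9 against 37.9 and 28.4 CPM (-1.40 ± 0.45). The 3 members of this group, Isg15, Usp18 and Herc6, had adjusted p-values from 0.103 to 0.328 in edgeR.

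Genes that act on virus entry, copying or release had log2 fold changes from -2.71 to -0.74. Rsad2, which encodes viperin, an enzyme that makes a chain-ending nucleotide, stood at 72.1 and 46.9 against 8.85 and 9.27 CPM (-2.71 ± 0.29). Cmpk2, the neighbouring gene, whose product supplies the nucleotide that viperin uses, stood at 109 and 60.6 against 17.8 and 17.7 CPM (-2.26 ± 0.34). The Cre libraries were nearly equal in both genes, with ratios of 0.955 and 1.00. Bst2, tetherin, which holds new virus particles on the cell, was the most abundant of the 33 by FPKM, at 329 ± 7.89 in the floxed-labelled libraries and 197 ± 36.8 in those labelled Cre (SD, n = 2 each). Its difference was among the smallest, at 285 and 315 against 203 and 155 CPM (-0.74 ± 0.26). Mx1, a dynamin-like GTPase that traps viral components, was low: it stood at 17.0 and 15.4 against 11.2 and 7.89 CPM (-0.76 ± 0.32, unadjusted p 0.0614). Mx2, its paralog, which the GENCODE M21 annotation classes as a polymorphic pseudogene, stood at 12.2 and 12.5 against 4.17 and 3.69 CPM (-1.65 ± 0.33), and its floxed libraries were nearly equal.

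The sensors and their effectors were the most mixed group, with a median log2 fold change of -1.11 over 10 genes. The helicases that detect viral RNA in the cytoplasm differed by less than the IFIT genes. Ddx58, which encodes RIG-I, stood at 155 and 99.5 against 66.8 and 70.7 CPM (-0.89 ± 0.28), and Ifih1, which encodes MDA5, at 93.6 and 57.4 against 36.7 and 42.9 CPM (-0.92 ± 0.30). Without floxed replicate 1 both were at -0.53. Dhx58, which encodes LGP2, a regulator of the other two, stood at 36.8 and 32.8 against 14.9 and 11.0 CPM (-1.43 ± 0.27). Zbp1, a sensor of left-handed nucleic acid that can trigger cell death, had the largest difference of the group, at 153 and 62.4 against 20.8 and 20.6 CPM (-2.38 ± 0.46). Eif2ak2, which encodes PKR, a kinase that stops translation when it binds double-stranded RNA, had the smallest of the 32 lower genes, at 138 and 80.8 against 65.9 and 69.9 CPM (-0.69 ± 0.31, unadjusted p 0.0749). Its log2 fold change was -0.25 without floxed replicate 1.

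The oligoadenylate synthetases make a messenger that activates RNase L, which degrades RNA, and their genes did not move as one. Oas1a stood at 72.5 and 65.1 against 32.8 and 28.1 CPM (-1.18 ± 0.21). Oas3 stood at 60.1 and 21.8 against 16.8 and 11.7 CPM (-1.52 ± 0.53), and at -0.61 without floxed replicate 1. Oas2, which lies 3.24 kb from Oas3 on chromosome 5, stood at 56.1 and 50.2 CPM in the floxed-labelled libraries and at 69.3 and 60.1 CPM in those labelled Cre (0.28 ± 0.20, unadjusted p 0.218, adjusted p 0.57 in edgeR). The groups did not overlap, but the gap between the nearest libraries was smaller than that between the Cre libraries, and the difference did not pass any test run. It kept its sign in all 12 other settings, from 0.17 without Cre replicate 1 to 0.38 without Cre replicate 2. As the groups did not overlap, leaving out 1 library could hardly change that sign. By FPKM, Oas2 averaged 11.9 ± 1.50 and 14.4 ± 1.40 (SD, n = 2 each), while Oas3 averaged 5.84 ± 4.07 and 2.00 ± 0.506. Of the related Oasl genes, Oasl2 stood at 389 and 228 against 122 and 119 CPM (-1.35 ± 0.33) and Oasl1, which acts on translation of Irf7, at 32.7 and 25.8 against 15.8 and 12.7 CPM (-1.04 ± 0.27).

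Among the signalling genes, Irf9, the DNA-binding part of ISGF3, had nearly equal floxed and nearly equal Cre libraries, at 159.9 and 163 against 78.5 and 77.9 CPM (-1.05 ± 0.20). Stat2, its partner, stood at 247 and 76.9 against 60.1 and 50.7 CPM (-1.55 ± 0.56). The high value was that of floxed replicate 1, at 3.21 times floxed replicate 2, and the log2 fold change was -0.47 without it. Irf7, which amplifies interferon production, stood at 189 and 141 against 56.6 and 35.7 CPM (-1.84 ± 0.32). Irf1, a factor that interferon gamma induces strongly, stood at 285 and 90.9 against 48.5 and 40.3 CPM (-2.08 ± 0.56), with a floxed ratio of 3.13, and at -1.03 without floxed replicate 1. In all 4 genes both libraries labelled Cre lay below both labelled floxed, as in 23.6% of all genes tested. In Stat2 and Irf1, however, the floxed libraries differed from each other by more than floxed replicate 2 differed from the mean of those labelled Cre.

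For the remaining 7 genes the median log2 fold change was -1.30. Rtp4, a chaperone of membrane receptors that interferon induces, stood at 145 and 117 against 38.4 and 37.5 CPM (-1.79 ± 0.22). Xaf1, which promotes cell death by opposing XIAP, stood at 89.6 and 68.9 against 25.8 and 27.8 CPM (-1.56 ± 0.23), and Ifi44 at 75.8 and 55.0 against 24.4 and 28.6 CPM (-1.30 ± 0.25). These 3 were high in both floxed libraries. Ifi27l2a, a small mitochondrial membrane protein, was the second most abundant by FPKM in the floxed-labelled libraries (176 ± 46.9, SD, n = 2) and was the member in which floxed replicate 2 most exceeded floxed replicate 1, at 64.4 and 101 against 43.1 and 23.9 CPM (-1.30 ± 0.38). Trim30a, a ubiquitin ligase that restrains inflammatory signalling, stood at 105 and 58.9 against 31.2 and 34.2 CPM (-1.32 ± 0.32). Ifi35 stood at 28.6 and 28.8 against 19.6 and 12.7 CPM (-0.83 ± 0.30), and at -0.55 without Cre replicate 2. Parp14, which transfers ADP-ribose to proteins, was by CPM the highest of the 33 in floxed replicate 1, at 472 CPM, but floxed replicate 2 held 164 CPM against 133 and 146 CPM (-1.19 ± 0.52, unadjusted p 0.07). Without floxed replicate 1 its log2 fold change was -0.23.

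**Figure D2:**
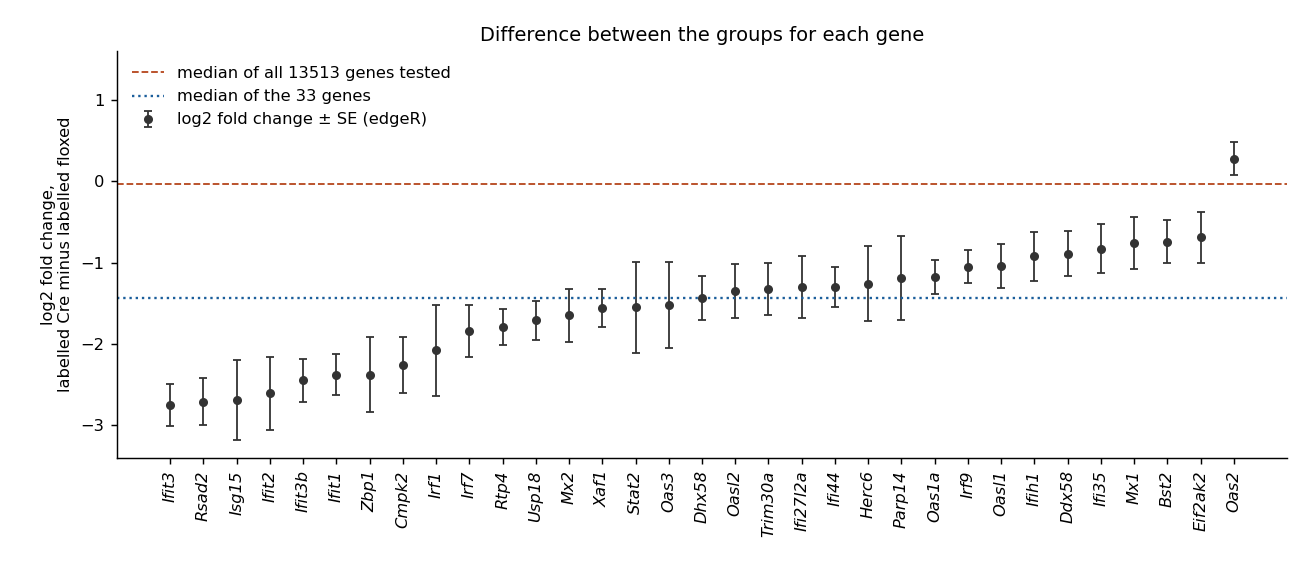
Log2 fold change of each of the 33 genes (points, libraries labelled Cre minus those labelled floxed) with its SE from edgeR (bars), in order of size. The genes run from Ifit3 at -2.75 to Oas2 at 0.28, and the dotted median of the 33, -1.43, lies below the dashed median of all 13513 genes, -0.033.

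The genes differed in how close the floxed libraries lay to each other. The ratio of floxed replicate 1 to floxed replicate 2 had a median of 1.34 over the 33 genes and ran from 0.638 for Ifi27l2a to 3.21 for Stat2, and it was above 2 in 7 genes (Ifit2, Oas3, Irf1, Stat2, Zbp1, Parp14 and Herc6). Over all genes with a count in both libraries the median was 1.02 and 10.1% were above 2. Between the libraries labelled Cre the ratio had a median of 1.13 over the 33 genes, and only Isg15 was above 2. Set against the mean of the libraries labelled Cre, floxed replicate 1 was higher by a median of 3.32 times and floxed replicate 2 by a median of 2.08 times, and 19 of the 33 genes were over 2 times higher in floxed replicate 2 alone. The share of all genes over 2 times higher is not given here, so that count is a description only. In that library Ifit3 (6.07 times), Isg15 (5.27), Rsad2 (5.17), Ifit3b (4.94) and Ifit1 (4.61) stood out, while Parp14 (1.17), Eif2ak2 (1.19) and Stat2 (1.39) were close to the libraries labelled Cre. The median log2 fold change of the 33 was -1.06 without floxed replicate 1 and -1.74 without floxed replicate 2.

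Some genes outside the 33, picked here after their values were seen, differed more between the floxed libraries. Over the 30 other interferon-induced genes listed, the ratio of floxed replicate 1 to floxed replicate 2 ran from 0.428 (Ifitm1) to 11.3 (Igtp). It was below 1 in Ifitm1, Ifitm2, Ifitm3, Apobec3, Sp100, Phf11d and Shisa5 and above 1 in the others. A higher level in floxed replicate 1 was thus shared by part of the list, to different degrees. Ifng, the gene for interferon gamma, was not tested for its low level; it had 61 counts in floxed replicate 1 and 1 count in floxed replicate 2, against 3 and 0 counts in the libraries labelled Cre. Igtp, a GTPase of the immunity-related family, stood at 856 and 75.8 against 33.7 and 30.8 CPM, and Gbp2, a guanylate-binding protein, at 1008 and 147 against 62.5 and 56.4 CPM. Socs1, an inhibitor of JAK kinases, stood at 78.6 and 12.4 against 19.1 and 15.5 CPM. Floxed replicate 1 was high in these genes, at 6.35 times floxed replicate 2 for Socs1, 6.86 times for Gbp2 and 11.3 times for Igtp. Floxed replicate 2 was 0.716, 2.47 and 2.35 times the mean of the libraries labelled Cre for these 3. Which part of the 33 genes' difference goes with these values was not tested.

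**Figure D3:**
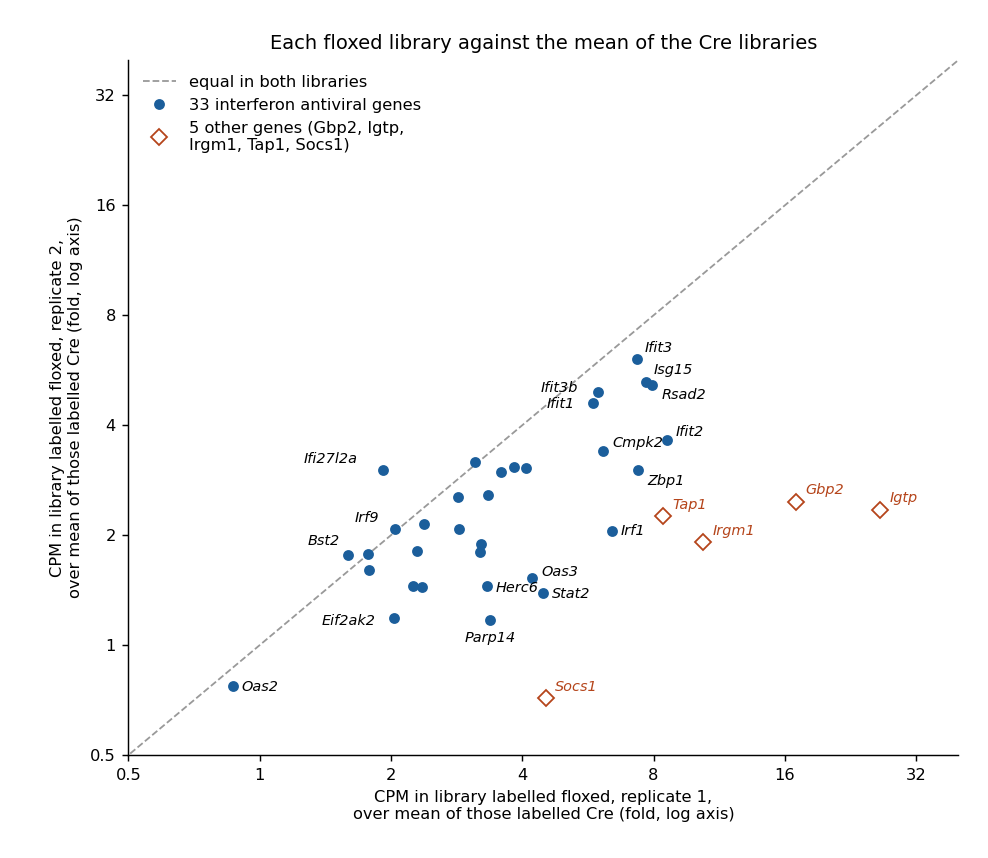
Each point is a gene, placed by its CPM in floxed replicate 1 (horizontal) and floxed replicate 2 (vertical), both as a fold of the mean of the libraries labelled Cre, on log axes; the dashed line marks equal values. Ifit3 lies at 7.35 and 6.07, near the line, Stat2 at 4.46 and 1.39, and Igtp, one of the 5 other genes, at 26.5 and 2.35.

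Upstream of the 33 genes, few ligands could be followed. Of 21 interferon genes listed, 4 had rows in the files, and the others were not analysed here. Ifne, the gene for interferon epsilon, was the only one tested, and it did not follow the antiviral genes: it stood at 0.51 and 17.2 CPM in the floxed-labelled libraries, from 12 and 300 counts, and at 5.39 and 2.71 CPM in those labelled Cre (adjusted p 0.738 in edgeR). It was thus lowest in floxed replicate 1, where the antiviral genes had their highest median. The receptor genes Ifnar1 (119 and 99.3 against 94.3 and 97.1 CPM) and Ifnar2 (45.4 and 42.5 against 29.3 and 26.7 CPM) had log2 fold changes of -0.19 and -0.65. The kinases Jak1 and Tyk2 had 0.049 and -0.021, with overlapping groups.

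Over the 9 genes for receptors and kinases the median log2 fold change was -0.19. At an unadjusted p under 0.05 in edgeR, 1 was lower (Ifnar2) and 0 were higher, where 6.58% of all genes were lower and 7.3% higher. Of the rest, the receptor subunit genes Ifnlr1 (interferon lambda), Ifngr2 (interferon gamma) and Il10rb (interferon lambda and interleukin 10) had the next smallest p, with log2 fold changes of -0.43, -0.60 and -0.23. The 7 negative regulators had a median of -0.43, with 1 lower, the phosphatase gene Ptpn6 (-0.67), and 0 higher; Ptpn2, Socs3 and Socs1 had -0.43, -0.63 and -1.40. Of the 16 genes for nucleic acid sensing other than the members, 1 was lower and 1 higher, with a median of -0.21. These counts are near the shares over all genes (6.58% and 7.3%). The higher one was Mavs, the adaptor on mitochondria through which RIG-I and MDA5 signal, at 58.4 and 59.7 CPM in the floxed-labelled libraries and 92.8 and 109 CPM in those labelled Cre (0.77 ± 0.21, adjusted p 0.232 in edgeR). The lower one was Myd88, the adaptor of most Toll-like receptors (-0.52), and Tlr9 and Irf5 had -1.48 and -1.16. A further 30 interferon-induced genes, listed with earlier results of these data known, had a median of -1.04: all 30 had negative log2 fold changes, 18 had a lower level at an unadjusted p under 0.05 (6.58% of all genes did), and 24 were lower without overlap (23.6% of all genes). Phf11d, Tor3a, Parp9 and Psmb8 had the smallest p of these, with log2 fold changes of -1.16, -1.36, -1.37 and -1.63. Their median was -0.62 without floxed replicate 1. At an adjusted p under 0.05 edgeR called 0 genes of these lists, and DESeq2 called 10 of the 30 induced genes, all lower (3.0% of all genes were), and 0 of the other lists.

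**Figure D4:**
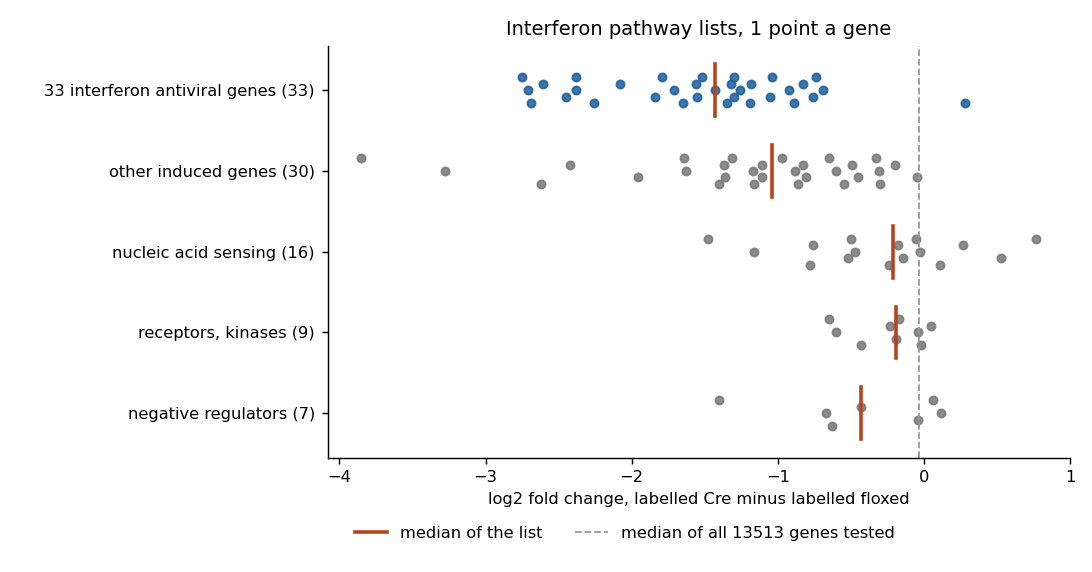
Log2 fold change of each tested gene (points) in 5 interferon lists, with the number of genes tested in brackets, the median of each list (bars) and the median of all 13513 genes (dashed line). The 33 antiviral genes have a median of -1.43 and 30 other induced genes -1.04, while the receptors and kinases lie at -0.19 and the sensing genes at -0.21.

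In bulk tissue, fewer cells of a type and less RNA per cell cannot be told apart, and immune cells express many of these genes. Markers of leukocytes too had lower sums in both libraries labelled Cre. The 5 general leukocyte markers summed to 458 and 341 CPM in the floxed-labelled libraries and to 232 and 239.7 CPM in those labelled Cre, and Ptprc, which encodes CD45, stood at 118 and 54.9 against 43.0 and 51.6 CPM. Of the 5, 4 were lower without overlap (23.6% of all genes were). The groups overlapped in Laptm5, at 144 and 109 against 116 and 120 CPM. All 7 neutrophil markers were lower without overlap (23.6% of all genes were), and they summed to 218 and 152 against 39.1 and 35.2 CPM. However, S100a8, S100a9, Cxcr2 and Ly6g passed the filter only through the floxed-labelled libraries, so that count is a description only. Their means in the libraries labelled Cre were 0.160, 0.536, 0.0259 and 0.736 FPKM. S100a8, S100a9 and Cxcr2 were near 0 in the libraries labelled Cre, with 1 and 3, 2 and 8, and 2 and 1 counts. The 7 tested T and NK cell markers summed to 67.3 and 77.2 against 17.1 and 15.8 CPM, with Gzmb, Nkg7, Prf1 and Cd8a at log2 fold changes from -2.57 to -2.12. Cd3d, Cd8a, Prf1 and Klrb1c also passed the filter only through the floxed-labelled libraries. Their means in the libraries labelled Cre were 0.570, 0.436, 0.681 and 0.717 FPKM. The 8 macrophage markers summed to 905 and 914 against 565 and 505 CPM, but a large part of the sum of floxed replicate 2 was Cd14. It stood at 55.7 and 410 against 89.2 and 91.9 CPM, with overlapping groups. Of the 8, 5 were lower without overlap (23.6% of all genes were), and Mrc1 was higher in the libraries labelled Cre (0.82). The 3 tested dendritic cell markers summed to 32.6 to 42.7 CPM in all 4 libraries, with overlapping groups. Among the untested markers of that list, Siglech and Ccr9 mark plasmacytoid dendritic cells, known as strong producers of type I interferon. Siglech did not separate the groups, with 27 and 37 against 27 and 25 counts, while Ccr9 had 41 and 18 against 9 and 3 counts. The rest were Flt3 (112 and 55 against 55 and 53 counts), Xcr1 (152 and 89 against 55 and 61) and Clec9a (104 and 36 against 56 and 54). The 3 tested B and plasma cell markers summed to 868.03 and 1118 against 460.0 and 500.3 CPM, nearly all of it Jchain. The sums of epithelial and of stromal markers overlapped, but single markers did not all do so. Of the 8 stromal markers, Pdgfra, Hoxa10, Hoxa11 and Hand2 were lower without overlap and Lum higher. Of the 8 epithelial markers, Epcam and Cldn4 were lower without overlap and Cdh1 higher. Over all genes, 23.6% were lower and 24.7% higher without overlap, so the epithelial count of lower markers is near that share. Cldn4, a tight junction protein, was 4.66-fold lower (adjusted p 0.0919 in edgeR and 1.49e-12 in DESeq2). Endothelial sums too were lower in both libraries labelled Cre, by a small margin, at 547 and 442 against 407 and 436 CPM. Of the 6 endothelial markers, 2 were lower and 0 higher without overlap (23.6% and 24.7% of all genes were). The summed level of the 33 antiviral genes was 4185 and 2682 CPM against 1379.6 and 1246.5 CPM. The part of these cell types in the difference of the antiviral genes was not tested.

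**Figure D5:**
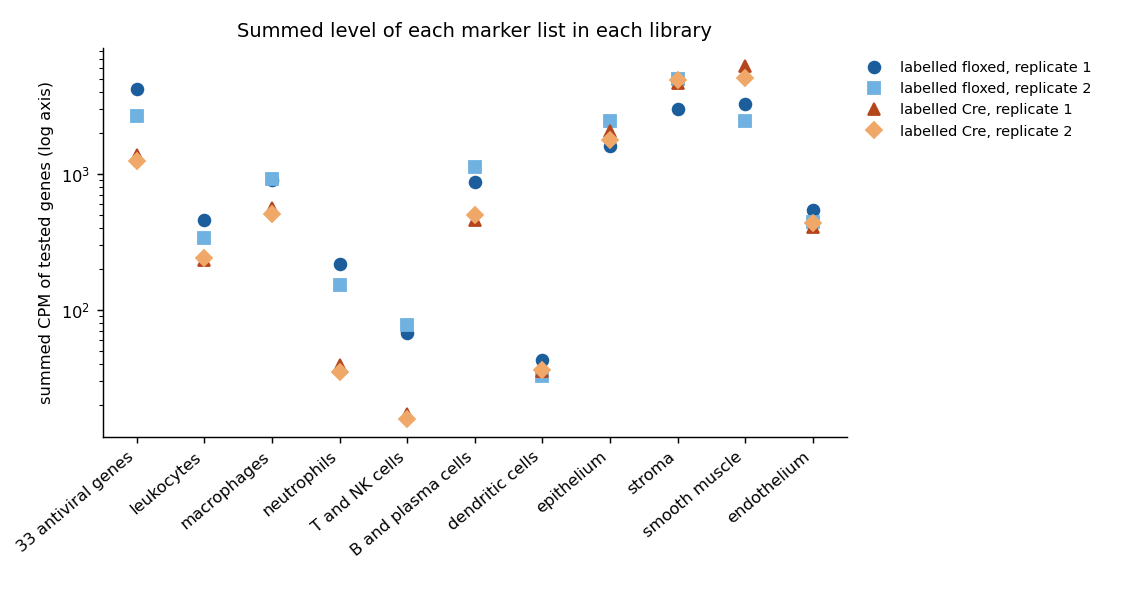
Summed CPM of the tested genes of each marker list in each library, on a log axis, beside the 33 antiviral genes; symbols as labelled. The neutrophil and T and NK cell sums are lower in both libraries labelled Cre, the smooth muscle sum is higher, and the dendritic cell, epithelial and stromal sums overlap.

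Several of the 33 genes lie beside each other, so they share their chromosomal region. On GRCm38 in the GENCODE M21 annotation, Ifit2 (chromosome 19, 34550694 to 34576419), Ifit3 (34583531 to 34588731), Ifit3b (34607970 to 34613401) and Ifit1 (34640871 to 34650009) follow each other on the plus strand, and these 4 neighbours had the closest log2 fold changes of any role group. Oas2 (chromosome 5, 120730333 to 120749853), Oas3 (120753098 to 120777661) and Oas1a (120896256 to 120907521) lie on the minus strand, and here the values of neighbours differed in sign. Rsad2 (chromosome 12, 26442746 to 26456452, minus strand) and Cmpk2 (26469204 to 26479837, plus strand) point away from each other, 12.8 kb apart, with log2 fold changes of -2.71 and -2.26. Oasl2 and Oasl1 are 11.0 kb apart and Mx1 and Mx2 72.4 kb apart. Some reads cannot be placed with certainty: 51.2% of the 50-base stretches of Ifit3 transcripts also occur in another gene, chiefly Ifit3b, 45.0% of those of Ifit3b and 57.6% of those of Oas1a, chiefly in Oas1g. Exons of Ifi35, Rtp4 and Herc6 share 16.8%, 13.9% and 13.7% of their bases with exons of other genes, and the labels do not say that counting used strand, so their levels are uncertain. Without these 6 genes the other 27 had a median log2 fold change of -1.43, with 23 lower at an unadjusted p under 0.05 (6.58% of all genes) and 26 with both libraries labelled Cre below both labelled floxed (23.6% of all genes).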

How the data were processed

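Polyadenylated RNA from mouse endometrium was sequenced in 4 libraries. For each gene the deposited tables give a raw read count and an FPKM value, per the file headers. FPKM is relative to gene length and to the library's own total. Per the submitters' processing notes, the tools included HTSeq 0.13.5 and HISAT2, with GRCm38 as the build. The strand setting and the handling of reads that fit several genes, both not given in the sources used here, can change the counts of close copies and overlapping genes.

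The 28545 genes were filtered to 13513 with a mean FPKM of at least 1. Differences were tested with edgeR 4.0.16 (R 4.3.3), by quasi-likelihood after TMM scaling, in a model of group alone that leaves 2 residual degrees of freedom. P-values are two-sided and were adjusted by Benjamini-Hochberg over all genes tested. Each SE is the size of the log2 fold change over the root of F. The procedure was tested on simulated data with the same spread in both groups. That check does not cover the unequal spread of the floxed and Cre pairs seen here. Alternatives were other filters and scalings, DESeq2 1.42.0, limma 3.58.1 on log2(FPKM + 1) and log2(FPKM + 0.1), the replicate number as a block and each library left out. Leaving out the members that share over 10% of their sequence was added after seeing the data. At these depths 3 counts equal 0.127 to 0.173 CPM.

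The members and lists were chosen with earlier results of these data known. Every member was named; of other pathway lists, the 4 genes with the smallest p and a few fixed genes were, and of marker lists some of these and the sums. Igtp, Gbp2, Ifng, Uba7, Ube2l6, Irgm1, Tap1, Ifitm1, Cldn4, the other stromal and epithelial markers, Cd14, Siglech, Ccr9, Flt3, Xcr1 and Clec9a were named after their values were seen. So were Ifitm2, Ifitm3, Apobec3, Sp100, Shisa5, Laptm5, Ly6g, Cd3d and Klrb1c. Motifs were counted by exact match on both strands. One item of the receptor and kinase list is not reported here and was left out of the list's counts.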

Additional observations from a re-analysis of the deposited data

How the results depend on the processing

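All 33 genes kept their direction in the 12 other settings in which they were tested, with 29 of them left under a filter of mean FPKM 5. In none of the 33 did the groups overlap, so leaving out 1 library could hardly change a direction. The other settings refit the same 4 libraries, so the kept directions are no separate support. Calls did not hold alike: at an adjusted p under 0.05 edgeR called 0 genes and 0 members, DESeq2 called 843 and 20, edgeR with no filter on low values called 1928 and 28, and a filter of mean FPKM 5 called 1 gene and 0 members. With single libraries left out, edgeR called 0 to 4249 genes and 0 to 31 members. The calls came when a floxed library was left out (4249 genes and 25 members without floxed replicate 1, 2942 and 31 without floxed replicate 2, against 13.9% and 11.4% of all genes lower), a fit that takes the spread of the remaining floxed library from the Cre pair. At an unadjusted p under 0.05 the members lower numbered 16 to 32 with 1 library left out, 18 without Cre replicate 1 and 16 without Cre replicate 2, where 2.17% and 2.0% of all genes were lower. Their median log2 fold change ran from -1.74 to -1.06. Medians of receptors and kinases ran from -0.32 to -0.077, of negative regulators from -0.46 to -0.14, of sensing genes from -0.31 to -0.083 and of other induced genes from -1.19 to -0.62; with a filter of mean FPKM 5 the sensing genes had -0.023 over 11 genes. The cause of these shifts was not tested. The labels share replicate numbers but not what they stand for, and the deviations of libraries numbered 1 correlated at -0.0829 across genes, so the replicate block was an alternative only. It gave 28 members lower, a median of -1.32 and 1525 genes at an unadjusted p under 0.05 (1876 without it), and changed no call. Depth limits the lowest genes, such as Ifng. It also limits S100a8, S100a9 and Cxcr2 in the libraries labelled Cre, where they had 1 to 8 counts.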
